A study of Mus musculus with 8 samples.

Results

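The genes described here were 10 components of the photoreceptor ribbon synapse. They were chosen by name for their place in the synapse, with earlier results of these data known. *Bsn*, *Pclo* and *Rims2* encode proteins of the presynaptic active zone, *Cacna1f*, *Cacnb2*, *Cacna2d4* and *Cabp4* encode the calcium channel and its regulator, and *Egflam*, *Dag1* and *Elfn1* encode proteins that reach into the synaptic cleft. All 10 were among the 54532 genes counted, and all 10 were among the 17998 genes that held enough counts to be tested. In *Mettl3*-CKO retinas 3 of the 10 genes fell (*Cacna2d4*, *Egflam* and *Cacna1f*), 1 rose (*Dag1*) and 6 did not pass the test. Of all genes tested, 4.05% were called lower and 6.49% were called higher. The genes that changed belonged to the calcium channel and the cleft, and the levels of the active zone genes overlapped between the groups.

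Rods and cones release glutamate in darkness without pause, and the ribbon, a plate anchored at the active zone by Bassoon, holds a supply of synaptic vesicles next to the calcium channels that trigger release. Across the cleft, pikachurin (encoded by *Egflam*) binds dystroglycan (encoded by *Dag1*), and both are needed for bipolar cell dendrites to contact the photoreceptor terminal correctly, while ELFN1 of rods engages the glutamate receptor mGluR6 of rod bipolar cells. In the mouse these terminals mature in the weeks after birth, while the last rods, bipolar cells and Müller glia are still being generated.

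Bulk RNA-seq was performed on retinas of mice at postnatal day 7, with 4 samples of *Six3-Cre+; Mettl3floxed/floxed* mice (*Mettl3*-CKO) and 4 samples of littermate controls. The labels of the controls give no alleles, and the study's methods give the age as day 6. METTL3 is the catalytic subunit of the complex that writes m6A onto RNA, and *Six3-Cre* deletes the floxed gene in retinal progenitor cells, so cells that do not descend from them kept the gene. The study reports efficient loss of METTL3 for the central retina, and no region is stated for the retinas sampled here. The labels do not say whether the samples came from separate animals, so the p-values measure the spread between these samples only, which may be partly technical.

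The samples held between 16227095 and 20281517 counts, at which 3 counts corresponded to between 0.148 and 0.185 CPM (counts scaled to a common library total). *Mettl3*, the targeted gene, which lies on chromosome 14 of GRCm38 (52294841 to 52305128, minus strand), was at 21.1, 29.6, 21.3 and 24.3 CPM across the knockout samples in replicate order, compared with 33.8, 32.5, 29.4 and 29.3 CPM across the controls. *Mettl3*-CKO replicate 2 lay within the range of the controls, and the log2 fold change of -0.38 (SE 0.12) did not pass edgeR's quasi-likelihood test (adjusted p = 0.0602). The counts are of the whole gene, and which part of it is floxed was not given in the sources used here. Control replicate 4 stood apart from the others in lens genes, whose summed level was 3250 CPM against 6.98 to 70.1 CPM in the other 7 samples, and control replicate 1 had the highest summed level of rod markers, 6440 CPM. The members called below are therefore also given without these 2 samples.

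Levels below are CPM after TMM scaling, and a gene was called changed where its adjusted p in edgeR's quasi-likelihood test over all 17998 genes was under 0.05. Among all genes tested, 4.05% were called lower and 6.49% were called higher in *Mettl3*-CKO retinas. Of the members, 3 of 10 were lower and 1 of 10 was higher. Without *Mettl3*-CKO replicate 1 these counts were 2 and 0, and those over all genes were 185 and 509 in place of 729 and 1168, whereas without control replicate 1 those over all genes were 1289 and 1882. Read without a model, 4 members had all 4 *Mettl3*-CKO samples below all 4 controls, against 7.58% of all genes, and 1 member had all of them above, against 9.77% of all genes. The median log2 fold change was -0.31 over the 10 members and -0.01 over all genes tested. By place in the synapse, the median was 0.02 for the 3 active zone genes, -0.45 for the 4 calcium channel genes and -0.30 for the 3 cleft genes. Of the members, 9 have at least 4000 exonic bases, and the median log2 fold change of the 8508 tested genes of that length was -0.01. In whole-retina RNA, fewer cells of a type and less RNA per cell cannot be told apart.

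**Figure D1:**
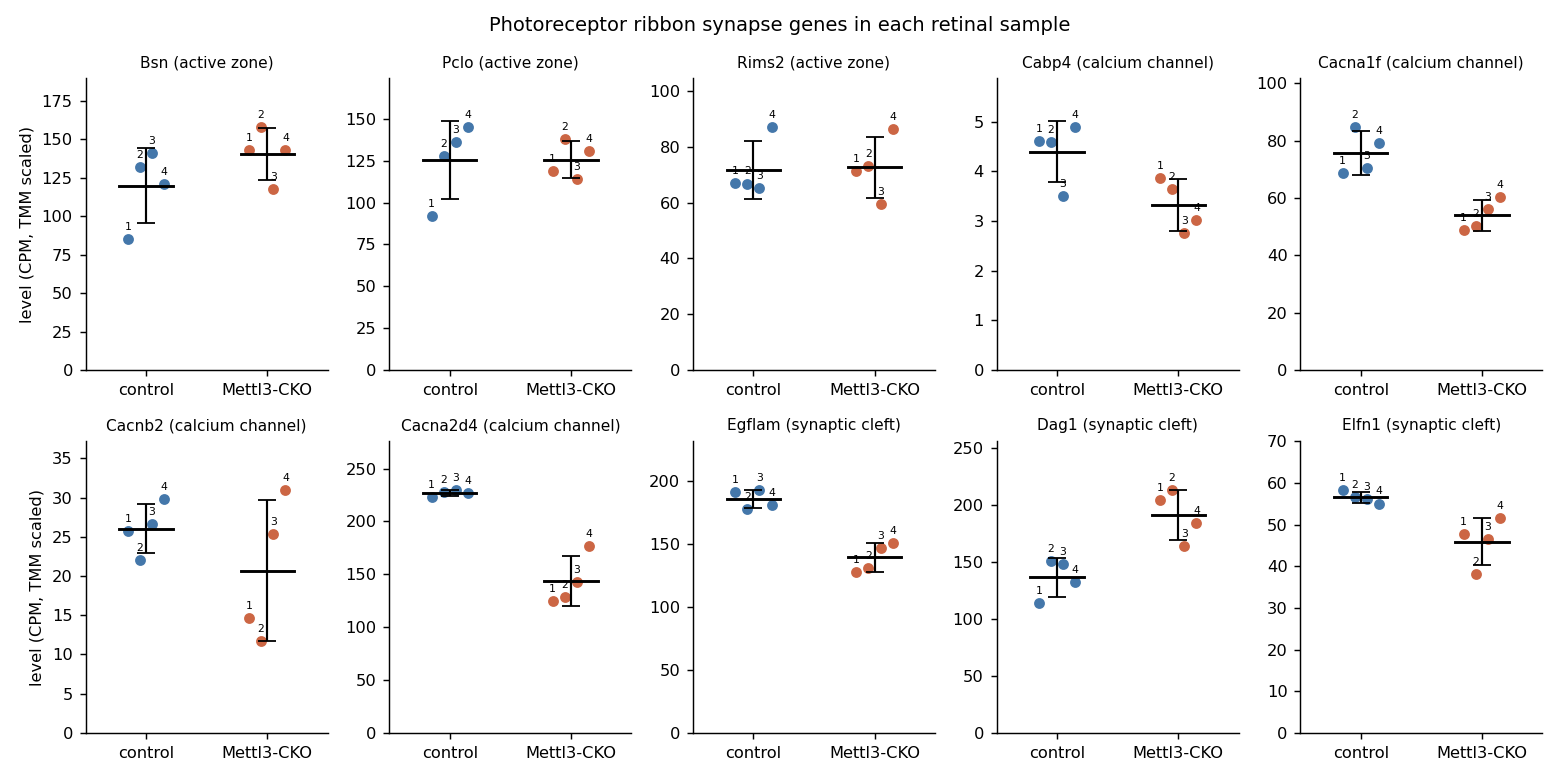
The level of each of the 10 genes in every sample (CPM after TMM scaling, vertical axes from 0), with the replicate number beside each point, controls in blue and Mettl3-CKO samples in red; bars are means and whiskers are SDs (n = 4). The groups are apart for Cacna1f, Cacna2d4, Egflam and Elfn1, all lower in Mettl3-CKO, and for Dag1, which is higher, and they overlap for the other 5 genes.

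The active zone genes did not differ detectably between the groups in whole-retina RNA. These counts do not separate photoreceptors from other retinal cells, so they do not report photoreceptor terminals alone. *Bsn* (ENSMUSG00000032589, chromosome 9 of GRCm38, 108096022 to 108190384, minus strand) encodes Bassoon, the scaffold that anchors the ribbon to the membrane. The CPM values in replicate order were 143, 158, 118 and 143 with the knockout and 85.4, 132, 141 and 121 in littermates. The ranges overlapped, and control replicate 1 lay far below the other controls. The means were 141 ± 16.3 and 120 ± 24.2 CPM (SD, n = 4 each), with a log2 fold change of 0.23 (95% interval -0.07 to 0.54, adjusted p = 0.337, edgeR). Without control replicate 1 the log2 fold change was 0.10.

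*Pclo* (ENSMUSG00000061601, chromosome 5, 14514918 to 14863459, plus strand) encodes Piccolo, a large scaffold related to Bassoon, whose short variant is the form found at ribbons. The 4 controls held 92.0, 128, 136 and 145 CPM in replicate order, and the 4 *Mettl3*-CKO samples held 119, 138, 114 and 131 CPM. Control replicate 1 was again the lowest of all 8 samples, and the *Mettl3*-CKO values fell inside the range of the controls. The means were 126 ± 11.1 and 125 ± 23.1 CPM (SD, n = 4 each), a log2 fold change of 0.01 (95% interval -0.27 to 0.28, adjusted p = 0.985, edgeR). The counts do not separate the short variant from the full-length transcript.

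*Rims2* (ENSMUSG00000037386, chromosome 15, 39198261 to 39684372, plus strand) encodes RIM2, the active zone protein that tethers vesicles and supports calcium channel opening in rods. Across the *Mettl3*-CKO samples in replicate order the level was 71.3, 73.2, 59.6 and 86.4 CPM, compared with 67.1, 66.8, 65.2 and 87.0 CPM across the controls. In each group replicate 4 was the highest, and the other 3 controls were nearly the same. The means were 72.6 ± 11.0 and 71.5 ± 10.3 CPM (SD, n = 4 each), a log2 fold change of 0.02 (95% interval -0.25 to 0.29, adjusted p = 0.941, edgeR). The sign of the *Pclo* and *Rims2* values turned when single samples were left out, so neither has a direction here.

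Of the 4 calcium channel genes, 2 fell and the other 2 had negative log2 fold changes that did not pass the test. *Cacna1f* (ENSMUSG00000031142, chromosome X, 7607083 to 7635196, plus strand) encodes the pore-forming subunit of the L-type channel of photoreceptor terminals. In replicate order, 48.7, 50.4, 56.3 and 60.2 CPM were found in the knockout samples and 68.6, 84.7, 70.3 and 79.2 CPM in the controls. Every *Mettl3*-CKO sample lay below every control, and *Mettl3*-CKO replicates 1 and 2 were the lowest. The means were 53.9 ± 5.33 and 75.7 ± 7.58 CPM (SD, n = 4 each), 28.8% lower in *Mettl3*-CKO retinas, with a log2 fold change of -0.49 (SE 0.10, adjusted p = 0.0104, edgeR). Without *Mettl3*-CKO replicate 1 the adjusted p was 0.0611, and without control replicates 1 and 4 the log2 fold change was -0.52 (adjusted p = 0.0115).

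The RefSeq promoter of *Cacna1f*, taken upstream of the gene's annotated start (GRCm38.p6, chrX:7606853-7607082, plus strand), is shown for the calcium channel genes because it was the only one of the 7 member promoters available with a motif of the photoreceptor homeodomain factors. The motifs searched, on both strands of the 250 bases upstream of the RefSeq start, were TAATCC and TAATCT, the core bound by CRX and OTX2, and GGGCGG, the GC box bound by SP-family factors. Capitals mark the motifs, here CCGCCC, which is a GC box on the opposite strand, followed by TAATCT at the end of the window.
Cacna1f: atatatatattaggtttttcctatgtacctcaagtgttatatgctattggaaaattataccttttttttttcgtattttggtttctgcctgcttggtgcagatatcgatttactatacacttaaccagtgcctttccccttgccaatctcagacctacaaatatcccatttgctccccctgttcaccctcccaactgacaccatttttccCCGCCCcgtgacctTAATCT
Of 32851 RefSeq promoters, 6.25% held TAATCC, 7.31% held TAATCT and 32.7% held GGGCGG. Of the 7 members with a promoter entry, 0 held the first of these motifs, 1 held the second (*Cacna1f*) and 4 held the GC box (*Cacna1f*, *Cacnb2*, *Dag1* and *Pclo*). For *Cacnb2* the RefSeq start lies inside the gene as annotated in the files, so its match is not upstream of the annotated start. A match describes the letters in the window and says nothing of whether a factor was bound.

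*Cacna2d4* (ENSMUSG00000041460, chromosome 6, 119236526 to 119352407, plus strand) encodes the auxiliary alpha2delta4 subunit, which brings the channel to the terminal and is needed for ribbon synapses to form. The CPM values in replicate order were 125, 129, 143 and 177 with the knockout and 223, 228, 230 and 227 in littermates. The 4 controls were almost the same, whereas the *Mettl3*-CKO samples were spread out below them, with a coefficient of variation of 16.6% against 1.12%. The means were 143 ± 23.8 and 227 ± 2.55 CPM (SD, n = 4 each), 36.8% lower, with a log2 fold change of -0.66 (SE 0.10, adjusted p = 0.00248, edgeR). It had the lowest log2 fold change of the 10 genes and stayed called when any 1 of the 8 samples was left out. Without control replicates 1 and 4 its log2 fold change was -0.67 (adjusted p = 0.0033).

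*Cacnb2* (ENSMUSG00000057914, chromosome 2, 14603088 to 14987908, plus strand) encodes the beta subunit that pairs with the pore in photoreceptors. The 4 controls held 25.7, 22.1, 26.6 and 29.8 CPM in replicate order, and the 4 *Mettl3*-CKO samples held 14.7, 11.7, 25.4 and 31.0 CPM. *Mettl3*-CKO replicates 1 and 2 lay well below every control, while replicates 3 and 4 lay among or above them. The coefficient of variation was 43.7% in the *Mettl3*-CKO group, the widest of any member, and 12.1% in controls. The means of 20.7 ± 9.04 and 26.1 ± 3.17 CPM (SD, n = 4 each) gave a log2 fold change of -0.33 (95% interval -0.86 to 0.20, adjusted p = 0.453, edgeR). Leaving out 1 sample at a time moved this value between -0.59 (without *Mettl3*-CKO replicate 4) and -0.13 (without *Mettl3*-CKO replicate 2). Exons of *Cacnb2* share 7.32% of their bases with annotated genes on the opposite strand, and the strand setting of the counting was not given in the sources used here.

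*Cabp4* (ENSMUSG00000024842, chromosome 19, 4135425 to 4139609, minus strand) encodes the calcium-binding protein that shifts the photoreceptor channel towards opening at the dark potential. Across the *Mettl3*-CKO samples in replicate order the level was 3.87, 3.65, 2.76 and 3.03 CPM, compared with 4.60, 4.59, 3.51 and 4.89 CPM across the controls. Control replicate 3 fell inside the *Mettl3*-CKO range, and the other 3 controls lay above it. The means were 3.33 ± 0.519 and 4.40 ± 0.607 CPM (SD, n = 4 each), a log2 fold change of -0.40 (95% interval -0.81 to 0.00, adjusted p = 0.205, edgeR). This was the member with the fewest reads, 52 to 86 counts per sample. In GENCODE vM21, whose model of *Cabp4* is longer than that of the deposited file, its exons share 3.72% of their bases with *Gpr152* on the opposite strand.

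**Figure D2:**
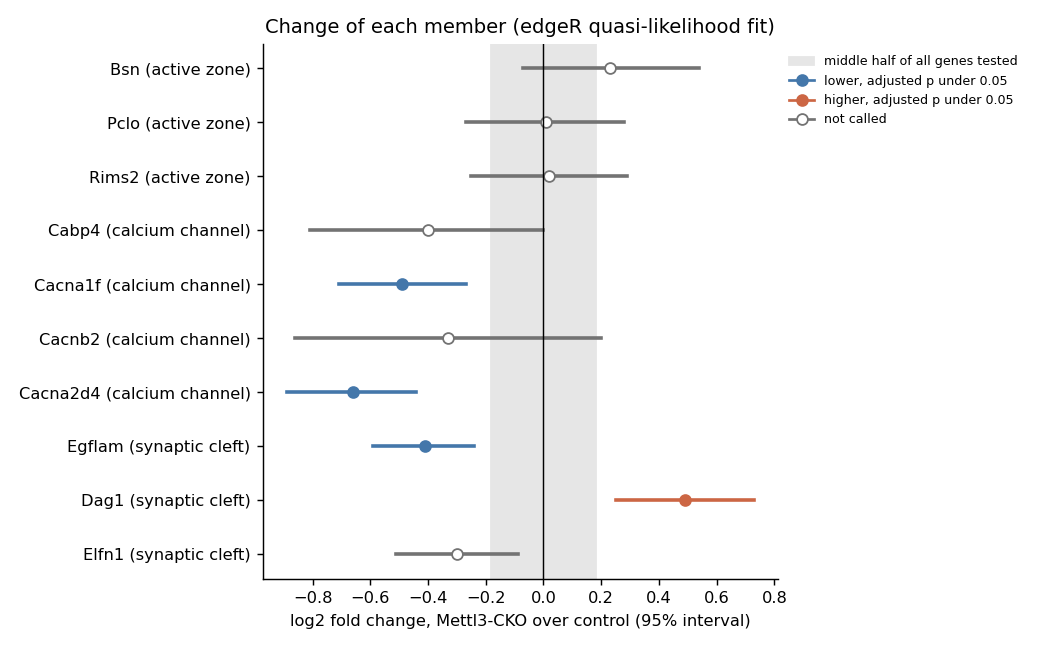
Log2 fold change of each gene (horizontal axis, Mettl3-CKO over control) with its 95% interval from edgeR's quasi-likelihood fit; filled points passed an adjusted p of 0.05 and open points did not. The grey band holds the middle of all genes tested, from the first to the third quartile (-0.18 to 0.18); the 3 active zone genes are centred near or just above 0, the 4 calcium channel genes lie left of 0, and Dag1 is the single called gene on the right.

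In the cleft, *Egflam* fell and *Dag1*, which encodes the binding partner of its protein, rose. *Egflam* (ENSMUSG00000042961, chromosome 15, 7206120 to 7398395, minus strand) encodes pikachurin, a secreted matrix protein made by photoreceptors. In replicate order, 128, 131, 147 and 151 CPM were found in the knockout samples and 191, 178, 193 and 181 CPM in the controls. The groups did not overlap, and the values within each group lay close together. The means were 140 ± 11.5 and 186 ± 7.18 CPM (SD, n = 4 each), 24.9% lower, with a log2 fold change of -0.41 (SE 0.08, adjusted p = 0.00807, edgeR). *Egflam* stayed called when any 1 of the 8 samples was left out, and without control replicates 1 and 4 its log2 fold change was -0.42 (adjusted p = 0.0128).

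*Dag1* (ENSMUSG00000039952, chromosome 9, 108204634 to 108263958, minus strand) encodes dystroglycan, a receptor for matrix proteins that is present in photoreceptor terminals and in many other cells, among them Müller glia and blood vessels. The CPM values in replicate order were 204, 213, 164 and 184 with the knockout and 114, 151, 148 and 132 in littermates. Every *Mettl3*-CKO sample lay above every control, and control replicate 1 was the lowest. The means were 191 ± 22.1 and 136 ± 17.0 CPM (SD, n = 4 each), 1.40-fold higher, with a log2 fold change of 0.49 (SE 0.11, adjusted p = 0.0151, edgeR). Without *Mettl3*-CKO replicate 1 the adjusted p was 0.0669, and without control replicates 1 and 4 the log2 fold change was 0.35 (adjusted p = 0.0433).

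The promoters of the cleft pair that moved apart are set side by side below (RefSeq, GRCm38.p6, both on the minus strand and read in the direction of the gene), Egflam at chr15:7398396-7398645 and Dag1 at chr9:108263959-108264208. Capitals mark the GC box GGGCGG, which occurs 3 times in the *Dag1* window, and the *Egflam* window holds none of the motifs searched.
Egflam: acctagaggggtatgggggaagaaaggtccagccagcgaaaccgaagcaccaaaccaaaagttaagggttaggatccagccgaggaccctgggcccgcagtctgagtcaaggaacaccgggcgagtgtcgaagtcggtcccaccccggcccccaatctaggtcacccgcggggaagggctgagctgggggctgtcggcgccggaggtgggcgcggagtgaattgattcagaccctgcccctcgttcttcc
Dag1: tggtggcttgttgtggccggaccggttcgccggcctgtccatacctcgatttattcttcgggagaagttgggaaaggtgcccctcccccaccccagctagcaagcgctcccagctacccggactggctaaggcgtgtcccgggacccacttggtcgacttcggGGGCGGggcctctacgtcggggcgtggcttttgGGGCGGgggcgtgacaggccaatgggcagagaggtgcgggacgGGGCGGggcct
The GC content of the windows was 63.2% for *Egflam* and 67.6% for *Dag1*, against 40.0% for that of *Cacna1f*.

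*Elfn1* (ENSMUSG00000048988, chromosome 5, 139907943 to 139974722, plus strand) encodes the adhesion protein through which rods recruit mGluR6 on the bipolar dendrite. The 4 controls held 58.4, 56.6, 56.1 and 55.1 CPM in replicate order, and the 4 *Mettl3*-CKO samples held 47.7, 38.1, 46.5 and 51.5 CPM. All *Mettl3*-CKO samples lay below all controls, though replicate 4 came close to the lowest of them, and the controls were tightly grouped. The means were 45.9 ± 5.65 and 56.5 ± 1.39 CPM (SD, n = 4 each), with a log2 fold change of -0.30 (95% interval -0.51 to -0.09) that did not pass the test over all genes (adjusted p = 0.0698, edgeR). DESeq2 gave an adjusted p of 0.042 for the same gene, so its call depended on the tool.

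Levels can be set against each other between genes only per length, as FPKM (CPM divided by the exonic length of the gene in kilobases). In controls *Egflam* was the highest member at 30.4 ± 1.17 FPKM (SD, n = 4), followed by *Cacna2d4* at 23.9 ± 0.269, *Dag1* at 21.4 ± 2.67, *Elfn1* at 13.5 ± 0.333 and *Cacna1f* at 8.33 ± 0.833 FPKM. *Bsn* at 7.51 ± 1.52, *Rims2* at 6.88 ± 0.995 and *Pclo* at 5.57 ± 1.03 FPKM came next, and *Cabp4* at 3.08 ± 0.424 and *Cacnb2* at 1.97 ± 0.239 FPKM were the lowest by the gene lengths in the deposited file. For *Cabp4* that length is 1431 bases, against 3518 exonic bases in GENCODE vM21. With the latter, an alternative chosen after seeing the data, its level would be 1.25 ± 0.172 FPKM in controls and 0.948 ± 0.148 FPKM in *Mettl3*-CKO retinas, below the means of *Cacnb2*, so the order of these 2 genes depends on the gene model. The ranges of neighbours in this order overlapped between *Cacna2d4* and *Dag1* and along the run from *Cacna1f* through *Bsn* and *Rims2* to *Pclo*, so the order within these is not set by the data. In *Mettl3*-CKO retinas *Dag1* came first at 30.1 ± 3.47 FPKM, ahead of *Egflam* at 22.8 ± 1.87 FPKM, with no overlap between the ranges of the 2 genes. *Cacna1f*, at 5.93 ± 0.586 FPKM, moved from above to below *Bsn* (8.83 ± 1.02 FPKM) and *Rims2* (6.99 ± 1.06 FPKM), although its range still overlapped that of *Rims2*.

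**Figure D3:**
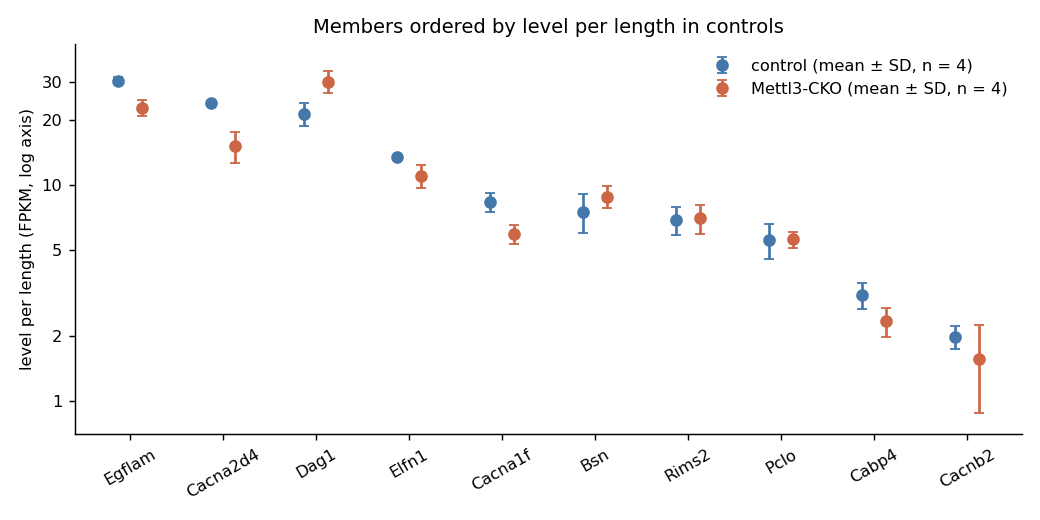
Mean level per length of each gene (FPKM, log axis) in controls (blue) and Mettl3-CKO retinas (red), with SD (n = 4), ordered by the level in controls. Egflam is first in controls (30.4) and Dag1 is first in Mettl3-CKO retinas (30.1), while Cacnb2 is last in both by the lengths in the file, an order that turns for Cabp4 and Cacnb2 with the longer GENCODE model of Cabp4.

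Partners were also set against each other in each sample as a ratio of FPKM in whole-retina RNA, which is not their balance at the synapse. *Egflam* over *Dag1* was 0.651, 0.640, 0.932 and 0.853 across the knockout samples in replicate order, compared with 1.73, 1.23, 1.35 and 1.43 across the controls. Pikachurin RNA thus exceeded dystroglycan RNA per length in all 4 controls and was below it in all 4 *Mettl3*-CKO samples (0.769 ± 0.146 against 1.43 ± 0.215, SD, n = 4 each). Both genes were already apart between the groups in opposite directions, so a ratio without overlap follows from them and is not a separate result. Within the channel the ratios shifted less: *Cacna2d4* over *Cacna1f* was 2.54 ± 0.187 against 2.89 ± 0.278 and *Cabp4* over *Cacna1f* was 0.399 ± 0.0982 against 0.370 ± 0.0483, with overlapping ranges for both and the *Cabp4* length of the file. *Pclo* over *Bsn* was 0.589 to 0.684 in *Mettl3*-CKO samples and 0.686 to 0.846 in controls, so these ranges lay next to each other without overlapping, by a narrow margin.

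Rod markers were lower in the same samples. Of 15 rod markers 9 were called lower and 0 were called higher, with a median log2 fold change of -0.67, and their summed level was 2460 to 4080 CPM in *Mettl3*-CKO samples and 4160 to 6440 CPM in controls. Among them were *Nrl* (log2 fold change -0.79, SE 0.16) and *Nr2e3* (-0.81, SE 0.15), transcription factors of rod identity, with adjusted p-values of 0.00861 and 0.00615 from edgeR. None of the 15 rod markers was at 0. Of the 9 cone markers tested 1 was called lower and 0 were called higher, with a median of 0.01. Of 8 cell cycle and progenitor markers 3 were called higher and 0 lower, with a median of 0.33 and summed levels of 1550 to 2150 CPM against 1140 to 1440 CPM. Of 7 tested markers of Müller glia, 1 was called lower and 1 higher, and of 8 tested vascular markers 6 were called lower and 0 higher (median -1.32), although their summed levels overlapped, at 536 to 633 CPM against 551 to 650 CPM. The summed levels did not overlap for horizontal cell markers (104 to 117 CPM against 59.1 to 96.9 CPM, 1 of 4 called higher) or for erythrocyte markers (4.29 to 7.18 CPM against 13.9 to 26.3 CPM, 2 of 3 tested called lower). Of 6 tested pigment epithelium markers 3 were called lower and 0 higher, with summed levels of 50.4 to 69.6 CPM against 74.2 to 98.9 CPM. The part of these shifts in the members' values was not tested.

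To put the members beside the rods, the mean log2 CPM of the 15 rod markers was taken as a rod score in each sample. The rod score was 6.47, 6.21, 6.76 and 7.09 across the knockout samples in replicate order, compared with 7.74, 7.16, 6.90 and 7.18 across the controls, a difference of -0.61 between the group means (two-sided exact permutation test, p = 0.0571, where 4 against 4 samples cannot go below 0.0286). Relative to this score the groups overlapped for all 3 genes that fell. The difference between the groups in log2 CPM minus rod score was 0.12 for *Cacna1f* (exact p = 0.686), -0.06 for *Cacna2d4* (exact p = 0.8) and 0.20 for *Egflam* (exact p = 0.457). The values for *Cabp4* (0.22, exact p = 0.486), *Cacnb2* (0.18, exact p = 0.429) and *Elfn1* (0.31, exact p = 0.2) were of the same order. With the cone markers added to the reference, the values for *Cacna1f*, *Cacnb2* and *Egflam* turned to -0.09, -0.03 and -0.01. Without control replicate 1, which had the highest rod score, the value was -0.09 for *Cacna1f*, -0.23 for *Cacna2d4*, 0.05 for *Egflam*, 0.08 for *Cabp4*, 0.01 for *Cacnb2* and 0.16 for *Elfn1*. The rod score itself differed by -0.61, so a gene with unchanged log2 CPM stands higher by about that size on this scale. The values for the active zone genes were 0.86 for *Bsn* (exact p = 0.0857), 0.64 for *Pclo* (exact p = 0.171) and 0.63 for *Rims2* (exact p = 0.0571). None of them was past 0.05, and without control replicate 1 they were 0.55, 0.33 and 0.44. Those of *Pclo* and *Rims2*, with log2 fold changes of 0.01 and 0.02, are nearly all shift of the rod score. The value of *Dag1* below holds the same shift. *Dag1* was higher by 1.10 on this scale, 0.94 ± 0.51 against -0.16 ± 0.53 (SD, n = 4 each), with all *Mettl3*-CKO samples above all controls (exact p = 0.0286, the smallest possible), and by 0.86 without control replicate 1. The p-values of these 10 tests are not adjusted for their number.

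**Figure D4:**
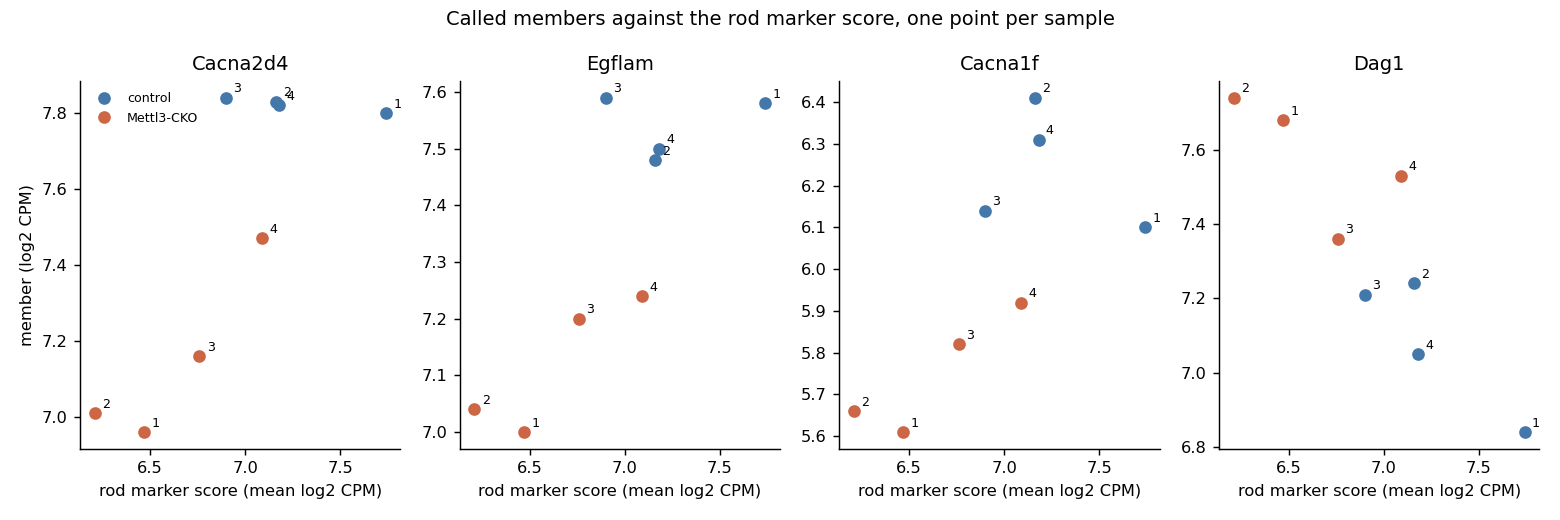
Level of the 4 called genes (log2 CPM, vertical axes) against the rod score (mean log2 CPM of 15 rod markers, horizontal axes), one point per sample with its replicate number, controls in blue and Mettl3-CKO in red. Mettl3-CKO replicates 1 and 2 have the lowest rod scores (6.47 and 6.21) and the lowest Cacna2d4, Egflam and Cacna1f, while Dag1 is highest in these 2 samples.

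The members also differed in how they varied among samples of one group. With group means removed, *Dag1* (r = -0.80), *Bsn* (-0.76) and *Pclo* (-0.63) ran against the rod score across the 8 samples, whereas *Elfn1* (0.73), *Cacnb2* (0.68), *Cacna2d4* (0.62) and *Egflam* (0.62) ran with it. *Cacna1f* (0.30), *Rims2* (0.16) and *Cabp4* (-0.12) showed little of either. Control replicate 1 had the highest rod score (7.74) and the lowest *Dag1*, *Bsn* and *Pclo* (114, 85.4 and 92.0 CPM). The r values of these genes, here and among the pairs below, thus rest in part on that sample. They were not computed without it. Of the 45 pairs of members, 5 had r over 0.8 on the same measure, and these fell into a pair of sets. *Bsn* with *Dag1* (0.92) and *Bsn* with *Pclo* (0.88) made the first, and *Cacnb2* with *Egflam* (0.86), *Cacnb2* with *Cacna2d4* (0.84) and *Cacna2d4* with *Egflam* (0.82) made the second. *Cabp4*, also a calcium channel gene, had negative r with the second set (-0.81 with *Egflam*, -0.59 with *Cacnb2* and -0.52 with *Cacna2d4*). It held only 52 to 86 counts per sample, so counting noise may make up much of its deviations. How much was not tested. The points share library, depth and tissue composition, and the values are given as a description. *Mettl3*-CKO replicates 1 and 2 lay below replicates 3 and 4 for *Cacna1f*, *Cacnb2*, *Cacna2d4* and *Egflam* as they did for the rod score. *Bsn* and *Dag1* are also neighbours on chromosome 9, on the same strand and 14249 bases apart with 1 annotated gene between them.

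Outside the 10 members, the gene whose log2 CPM followed each member most closely over the 8 samples was taken from 14307 genes with a mean log2 CPM of at least 1. Each is the highest of 14307 values over only 8 samples, so a high r comes with the choice itself. The r with group means removed is from the same gene and samples and is not a separate check. The genes are given as a description. For the genes that fell, these were *Dapp1* for *Cacna2d4* (r = 0.994, and 0.962 with group means removed), *Arntl* for *Egflam* (0.995 and 0.973) and *Spink2* for *Cacna1f* (0.979 and 0.936). *Dag1* was followed most closely by *Nynrin* (0.986 and 0.953) and *Elfn1* by *5330413P13Rik* (0.983 and 0.957). *Bsn* was followed by *Gpatch8* (0.990 and 0.997) and *Pclo* by *Dock4* (0.990 and 0.995). *Cacnb2* was closest to *Zfp866* (0.980 and 0.984), *Cabp4* to *Cd82* (0.944 and 0.876) and *Rims2* to *Ythdc2* (0.941 and 0.958). *Rims2* had the fewest close followers, with 2 genes over 0.9, and *Egflam* had the most, with 379.

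The wider machinery of the synapse was read from 5 further lists of genes, in which 5 of 86 tested genes (5.81%) were called lower and 2 (2.33%) higher, against 4.05% and 6.49% of all genes tested. The share lower is thus near that of all genes and the share higher is below it. These counts were 1 and 0 without *Mettl3*-CKO replicate 1 and 8 and 4 without control replicate 1. The summed level of the ribbon and active zone partners was 2190 to 2450 CPM in *Mettl3*-CKO samples and 2580 to 2770 CPM in controls. For the trans-synaptic and bipolar dendrite list it was 1200 to 1410 CPM against 1430 to 1620 CPM. The summed levels of the other wider lists overlapped. A sum weighs the most abundant genes most. Among 21 partners at the ribbon and active zone 1 was called lower, 0 were called higher and the median log2 fold change was -0.10. The gene that fell was *Unc119*, which encodes a lipid-binding trafficking protein abundant in photoreceptor terminals, at 205 ± 26.2 CPM in *Mettl3*-CKO against 334 ± 62.5 CPM in controls (SD, n = 4 each, log2 fold change -0.70, SE 0.13, adjusted p = 0.00566, edgeR). *Ctbp2*, whose locus also encodes the ribbon protein RIBEYE, was at 181 CPM in both groups (log2 fold change 0.00, adjusted p = 0.985, edgeR), and its counts do not separate RIBEYE from CtBP2. *Ctbp1*, the member of this list with the highest level per length among those not called, had a log2 fold change of -0.15 (adjusted p = 0.283, edgeR). The complexins of ribbon synapses, which clamp and promote vesicle fusion, gave -0.45 for *Cplx3* (adjusted p = 0.0668, edgeR) and -0.53 for *Cplx4* (adjusted p = 0.163, edgeR), neither past the test. *Ctbp2*, *Cplx3* and *Cplx4* were named after their values were seen.

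Among 17 tested genes for other calcium channel subunits and neuronal calcium-binding proteins 2 were called lower, 0 were called higher and the median was 0.06. *Cabp1*, a calmodulin-like regulator of calcium channels related to *Cabp4*, fell from 82.3 ± 8.05 to 56.0 ± 8.22 CPM (SD, n = 4 each, log2 fold change -0.56, SE 0.11, adjusted p = 0.00989, edgeR). *Cacna2d3*, a further auxiliary subunit of the *Cacna2d4* family, fell from 15.2 ± 0.780 to 11.3 ± 0.780 CPM (log2 fold change -0.42, SE 0.11, adjusted p = 0.027, edgeR). The pore-forming subunits other than *Cacna1f* were not called. *Cacna1h*, a T-type pore and the uncalled gene with the highest level per length, had a log2 fold change of 0.14 (adjusted p = 0.671, edgeR). *Cacna1i*, another T-type pore, held 184, 166, 149 and 135 CPM across the knockout samples in replicate order, compared with 67.5, 99.6, 17.3 and 96.9 CPM across the controls. All of its *Mettl3*-CKO samples lay above all controls, but the controls were widely spread and its log2 fold change of 1.17 (SE 0.37) did not pass the test (adjusted p = 0.0597, edgeR), and it was named after its values were seen.

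The partners of dystroglycan did not rise as a group with *Dag1*. Of 11 tested genes of the dystrophin-glycoprotein complex 1 was called higher, 0 were called lower and the median was -0.15. *Sspn*, which encodes the membrane protein sarcospan, rose from 4.89 ± 1.24 to 8.82 ± 2.04 CPM (SD, n = 4 each, log2 fold change 0.85, SE 0.21, adjusted p = 0.0217, edgeR). *Sgcb*, a sarcoglycan and the uncalled gene with the highest level per length, had a log2 fold change of -0.21 (adjusted p = 0.207, edgeR). *Dmd*, which encodes dystrophin, had a log2 fold change of -0.40 (adjusted p = 0.0605, edgeR), and it was named after its values were seen.

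The enzymes that build the sugar chain by which dystroglycan binds pikachurin were nearly balanced. Of 18 genes 1 was called higher, 0 were called lower and the median was -0.01. *Pomk*, the kinase that phosphorylates the core mannose of this chain, rose from 15.3 ± 3.28 to 24.6 ± 3.16 CPM (SD, n = 4 each, log2 fold change 0.69, SE 0.15, adjusted p = 0.0139, edgeR). *Dpm3*, a subunit of the enzyme that makes the mannose donor, had a log2 fold change of -0.15 (adjusted p = 0.519, edgeR).

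Of the trans-synaptic and bipolar dendrite list, which holds genes of both sides of the synapse, 2 of 19 tested genes were called lower, 0 were called higher and the median was -0.10. *Gnb3*, a G protein beta subunit of cones and ON bipolar cells, fell from 519 ± 60.7 to 390 ± 46.3 CPM (SD, n = 4 each, log2 fold change -0.41, SE 0.11, adjusted p = 0.0306, edgeR). *Nrxn3*, a presynaptic adhesion molecule of the neurexin family, fell from 122 ± 3.87 to 98.6 ± 8.41 CPM (log2 fold change -0.31, SE 0.08, adjusted p = 0.0369, edgeR). *Gnb5*, the partner of the RGS proteins that end the mGluR6 signal, had a log2 fold change of -0.12 (adjusted p = 0.616, edgeR). *Grm6*, which encodes mGluR6 and is the counterpart of *Elfn1*, held 0 to 5 counts per sample and was not tested, so at this age and depth its level could not be compared.

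**Figure D5:**
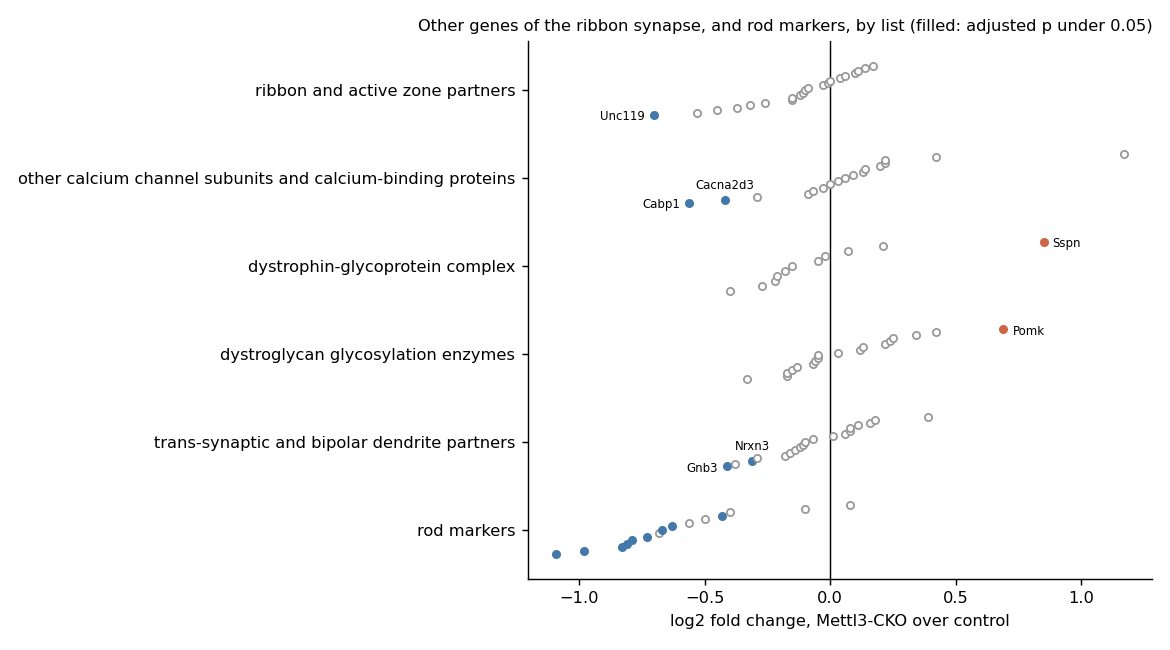
Log2 fold change (horizontal axis, Mettl3-CKO over control) of each tested gene in the 5 wider lists and the rod marker list, 1 point per gene, with filled points for an adjusted p under 0.05 in edgeR. The 5 genes called lower and the 2 called higher in the wider lists are named; in the rod marker list 9 of 15 are filled, all left of 0, and in the wider lists most points lie near 0.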

How the data were processed

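RNA-seq was performed by the authors on 4 *Mettl3*-CKO and 4 control retinal samples (TRIzol extraction, NEBNext Ultra libraries). Per the study's methods and the labels, reads were filtered, mapped to GRCm38 (mm10) with HISAT2 and counted per gene with featureCounts. The deposited values are raw whole-number counts per gene, with gene coordinates and lengths. The annotation release and the strand setting were not given in the sources used here, so genes that share exons with another gene are uncertain. Besides *Cacnb2* and *Cabp4*, this holds for *Pclo* and *Egflam*. Their exons share 4.12% and 3.23% of their bases with genes on the opposite strand in GENCODE vM21. 9 of the 10 members had the same coordinates in GENCODE vM21, the exception being *Cabp4*, whose length also differs. All 8 columns of counts matched a sample, and 0 columns were left unused.

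Counts were analysed in R 4.3.3 with edgeR 4.0.16 (filterByExpr by group, TMM scaling with factors from 0.969 to 1.01, quasi-likelihood test with group as the only term, Benjamini-Hochberg adjustment over 17998 genes, threshold 0.05). Log2 CPM used a prior count of 2. FPKM was computed from the deposited counts and gene lengths. Alternatives were DESeq2 1.42.0, limma 3.58.1 (voom with and without sample quality weights), other scalings, filters and thresholds, the replicate number as a block, and each sample left out. In counts simulated for *Mettl3*-CKO against control on 17998 genes, edgeR called 36.9%, 71.6% and 98.5% of the tested genes with a 1.5-fold, 2-fold and 4-fold change, with 3 unchanged genes called. Only 65, 67 and 65 tested genes had these changes, a smaller share than was called in the data. The adjustment depends on that share, so the rates do not carry over directly to these data.

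The members and lists were chosen with earlier results of these data known. Genes named are all 10 members, the targeted gene, in each wider list those called and the uncalled gene with the highest FPKM, and the gene most like each member; the few named after their values were seen are marked. Replicate numbers were not taken as pairs in the main fit. The correlation of same-numbered deviations ranged from -0.114 to 0.249, against -0.227 to 0.264 for the other combinations. These few values cannot exclude a pairing, and results with the replicate number as a block are given below. No samples were duplicates, since the lowest chi-square between samples of a group was 5.01 per gene. Promoter sequences are from RefSeq (GRCm38.p6), with an entry for 7 of the 10 members.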

Additional observations from a re-analysis of the deposited data

Results flagged for a closer look

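Among the 4 controls, *Rims2* stood apart in control replicate 4, at a log2 CPM of 6.44 against 6.03 to 6.07 in the other controls. The gap took up 0.896 of the range of the group, above the critical value of 0.829 for 4 samples. It was 1 of 22 groups examined (10 members and *Mettl3* in each condition), where chance alone gives about 1.1. The same sample was the one rich in lens genes, and *Rims2* was also highest in *Mettl3*-CKO replicate 4, which was not.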

How the results depend on the processing

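The calls of *Cacna1f* (log2 fold change -0.50 to -0.48), *Cacna2d4* (-0.68 to -0.65), *Egflam* (-0.42 to -0.39) and *Dag1* (0.38 to 0.50) held under all 9 alternatives of tool, scaling, filter and block. At an adjusted p under 0.01 the members called higher were 0. With 1 sample left out, members called numbered 2 to 3 lower and 0 to 1 higher, and those without overlap 4 to 5 lower and 1 to 2 higher. Over all genes, those called lower were 1568 with voom quality weights, 147 at 0.01, 1195 at 0.1 and 185 to 1289 with 1 sample left out, and those called higher were 2142 with quality weights, 439 at 0.01 and 509 to 1882 with 1 sample left out. In the wider lists, genes called lower were 8 with DESeq2, 9 with quality weights, 2 at 0.01, 8 at 0.1 and 1 to 8 with 1 sample left out, and those called higher were 6, 0 and 5 with quality weights, at 0.01 and at 0.1 and 0 to 4 with 1 sample left out. The lowest of these leave-one-out counts came without *Mettl3*-CKO replicate 1 and the highest without control replicate 1, except among members. Leaving out control replicates 1 and 4 together, an alternative chosen after seeing the data, left 3 genes of the wider lists called lower. *Pclo* turned negative with quality weights (-0.10), with upper-quartile scaling (-0.01), without control replicates 1 and 4 together (-0.07) and without *Mettl3*-CKO replicate 2 (-0.04), *Mettl3*-CKO replicate 4 (-0.01) or control replicate 1 (-0.12), within a leave-one-out range that reached 0.08. *Rims2* turned negative without *Mettl3*-CKO replicate 4 (-0.07) and without control replicates 1 (-0.01), 2 (-0.01) or 3 (-0.02), within a range that reached 0.13. Relative to cone and rod markers together, *Cacna1f* (-0.09), *Cacnb2* (-0.03) and *Egflam* (-0.01) turned negative. With 1 sample left out, the value relative to rod markers ran from -0.09 to 0.22 for *Cacna1f* and from -0.23 to 0.06 for *Cacna2d4*, turning sign without control replicates 1 and 3 respectively. The cause of these changes was not tested. *Elfn1* passed with DESeq2 (adjusted p = 0.042) and quality weights (adjusted p = 0.035). With the replicate block 3 members were called lower and 1 higher, 6 genes of the wider lists lower and 3 higher, and 660 genes lower and 1198 higher over the table. *Cabp4* had the fewest counts of the members, 52 to 86 per sample.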
